A study of Mus musculus with 13 samples.

Results

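The genes described here encode the proteins of the cytoplasmic ribosome. They were taken as the protein-coding genes of the deposited peak annotation whose names begin with Rpl (large subunit) or Rps (small subunit) followed by a digit, leaving out the S6 kinase genes and names that carry -ps, together with their annotated peaks at 100 kb or less from the gene's start. The rule found 75 genes, 43 Rpl and 32 Rps, among 15377 protein-coding genes with any peak at that distance. They lay on 19 chromosomes, with 12 on chromosome 7, 7 on chromosome 17 and 6 on chromosome 11. Among them 69, Rps27rt included, had names without the paralogue suffix l or l1, and 6 carried it (Rpl7l1, Rpl10l, Rpl22l1, Rpl39l, Rps4l and Rps27l). The 7 ribosomal protein names Rpl3, Rpl3l, Rpl7a, Rpl18, Rpl23a, Rpl36al and Rps25 occurred in none of the annotation tables, so they are not members. The rule kept 914 peaks over all the libraries and left out 22 that lay farther away. The kept peaks farthest out were FOXL2 peaks of Rps23 at 97.3 kb in both vehicle libraries, and the nearest of those left out were FOXL2 peaks of Rpl10l at 105.3 kb in both activin libraries.

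The peaks came from chromatin immunoprecipitation and sequencing in LβT2, a mouse cell line with features of the pituitary gonadotrope, the cell that makes luteinizing and follicle-stimulating hormone. All cells, vehicle controls included, carried a lentiviral cassette with constitutive GFP and doxycycline-inducible FLAG-tagged mouse FOXL2 (FLAG-mFoxL2), and all were given doxycycline for 48 h after 24 h of recovery. After 2 h in medium with 2% serum the cells were exposed for 1 h to either vehicle or activin A at 1 nM and were fixed with 1% formaldehyde, and each sample was a pool of 3 plates. Antibodies to SMAD2/3, to the FLAG tag and to histone H3 acetylated at lysine 27 (H3K27ac) were each applied to 2 samples with vehicle and 2 with activin, which gives 12 peak lists. The FOXL2 peaks are therefore those of an induced, tagged protein in a stable line, and no sample without induction was compared. No source says that the 2 samples of a group came from separate cultures, so the p-values below measure only the spread between these samples, which may be technical. With 2 lists against 2 the exact permutation test has 6 labellings, and its smallest two-sided p is 0.333.

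A ribosome is built from ribosomal RNA and a fixed set of proteins, and the genes for these proteins are transcribed at a high and even rate in almost every cell type. Their promoters often start within a run of pyrimidines, from which the messenger RNA takes the 5′ terminal oligopyrimidine tract that couples its translation to growth signals through mTOR, and their introns often hold small nucleolar RNAs (snoRNAs). Activin receptors phosphorylate SMAD2 and SMAD3, which enter the nucleus and in gonadotropes act with the forkhead factor FOXL2 on genes such as Fshb, the beta subunit of follicle-stimulating hormone. H3K27ac marks promoters and enhancers in use, and ribosomal protein genes serve here as a housekeeping set beside the activin response.

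Promoter windows of 6 members are given first, because they carry the letters that were more frequent in these promoters than in others, and because results at most of these genes are described below. Each window runs from 150 bases before a RefSeq start to 30 bases from the start base on, 5′ to 3′ on the gene's strand, as 180 bases of RefSeq's GRCm38.p6 promoter table. Capitals mark the ETS letters CCGGAAG, the YY1 letters AAGATGGC (either motif on either strand), and an unbroken run of C and T of at least 5 bases that begins at the start base. Rps27 (chr3:90213619-90213798, minus strand) and Rpl35a (chr16:33056332-33056511, plus strand) show a C/T run with YY1 letters, Rps21 (chr2:180257229-180257408, plus strand) a run with ETS letters at 2 places, and Rpl19 (chr11:98026560-98026739, plus strand), Rpl31 (chr1:39367701-39367880, plus strand) and Rpl41 (chr10:128549139-128549318, minus strand) ETS letters without such a run. The Rpl35a window is that of a later listed start, and at its first listed start the run was 1 base long. The counts and classes below use first listed starts, so there Rpl35a is without a run of at least 5.
Rps27: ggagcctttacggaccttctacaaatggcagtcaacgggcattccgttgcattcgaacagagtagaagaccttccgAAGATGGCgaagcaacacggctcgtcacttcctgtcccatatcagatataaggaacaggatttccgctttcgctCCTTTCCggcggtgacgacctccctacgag
Rpl35a: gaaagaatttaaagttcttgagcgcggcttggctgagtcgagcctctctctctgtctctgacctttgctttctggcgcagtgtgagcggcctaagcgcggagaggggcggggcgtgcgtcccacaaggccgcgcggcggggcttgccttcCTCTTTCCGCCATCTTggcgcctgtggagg
Rps21: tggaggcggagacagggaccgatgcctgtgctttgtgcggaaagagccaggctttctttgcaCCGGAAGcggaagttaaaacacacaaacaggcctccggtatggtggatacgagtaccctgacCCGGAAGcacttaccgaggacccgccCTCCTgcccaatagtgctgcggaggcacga
Rpl19: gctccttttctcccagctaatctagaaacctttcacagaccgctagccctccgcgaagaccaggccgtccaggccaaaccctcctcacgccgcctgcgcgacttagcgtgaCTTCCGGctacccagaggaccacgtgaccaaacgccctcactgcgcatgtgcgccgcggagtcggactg
Rpl31: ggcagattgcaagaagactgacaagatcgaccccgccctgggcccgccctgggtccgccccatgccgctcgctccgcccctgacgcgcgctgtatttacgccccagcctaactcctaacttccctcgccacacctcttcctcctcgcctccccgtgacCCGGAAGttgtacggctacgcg
Rpl41: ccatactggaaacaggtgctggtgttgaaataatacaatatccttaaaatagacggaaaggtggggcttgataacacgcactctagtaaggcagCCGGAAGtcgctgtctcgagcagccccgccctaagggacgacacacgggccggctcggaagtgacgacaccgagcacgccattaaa

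The promoter table held 57 of the 75 members. Among the first listed starts of these 57, the 300 bases around the start held the ETS letters CCGGAAG (other strand CTTCCGG) in 22, 38.6%, against 15.0% of 11226 protein-coding genes. The YY1 letters AAGATGGC (other strand GCCATCTT) stood in 5, 8.77%, against 3.82%, and these were Rps27, Rpl13a, Rps15a, Rpl35a and Rpl7l1. A run of at least 5 C or T from the start base was present in 14, 24.6%, against 3.85% of all genes, and a run of at least 8 in 9, 15.8%, against 1.10%. The GC box letters GGGCGG (other strand CCGCCC) were about as frequent in members as in all genes, in 33 (57.9%) against 56.6%, and the TATA letters TATAAA (other strand TTTATA) in 5 (8.77%) against 9.66%. The forkhead letters GTAAACA (other strand TGTTTAC) occurred in 1 member, Rpl41, 241 bases before its start and so upstream of the window printed above, which is 1.75% of members against 2.63% of all genes. The SMAD palindrome GTCTAGAC occurred in 0 members and in 0.214% of all genes. GC content had a median of 56.7% in the members and 59.3% over all genes. These matches describe letters in a window and say nothing of whether a factor bound there.

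Peak strength is given as a percentile rank within a library's own list, by the authors' −log10 q, with 100 for the strongest peak, because the lists differed in length and hold no read counts. The H3K27ac lists held 38995 to 41763 peaks, the FOXL2 lists 83834 to 97701, and the SMAD2/3 lists 605 and 144 peaks with vehicle against 7784 and 5970 with activin. As a check of the label, 6 of 7 gonadotrope markers with a RefSeq start (Cga, Lhb, Gnrhr, Foxl2, Gata2 and Isl1) had H3K27ac there in all 4 lists and Fshb had none, while 0 of 5 markers of other pituitary lineages had it in all 4. Values in 4 lists are always given in the order vehicle 1, vehicle 2, activin 1, activin 2. In a population of cells, a weaker peak in every cell and a peak in fewer cells cannot be told apart.

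H3K27ac covered the starts of nearly all ribosomal protein genes, with and without activin. Of the 75 genes, 70, 69, 71 and 71 had an H3K27ac peak overlapping 1 kb on either side of a RefSeq start. It was there in all 4 lists for 68 of them, 90.7%, where 60.2% of 11244 protein-coding genes were. This reading takes any peak at the start whatever gene it was named for, and it was chosen after seeing the data. By subunit, 38 of 43 Rpl genes (88.4%) and 30 of 32 Rps genes (93.8%) had H3K27ac in all 4 lists. The share in the 57 members with a promoter table entry was 91.2%. The 3 genes with a peak in only some lists were Rpl17, Rpl22 and Rpl34, and Rpl10l, Rpl39l, Rps4l and Rps27rt had none in any list.

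**Figure D1:**
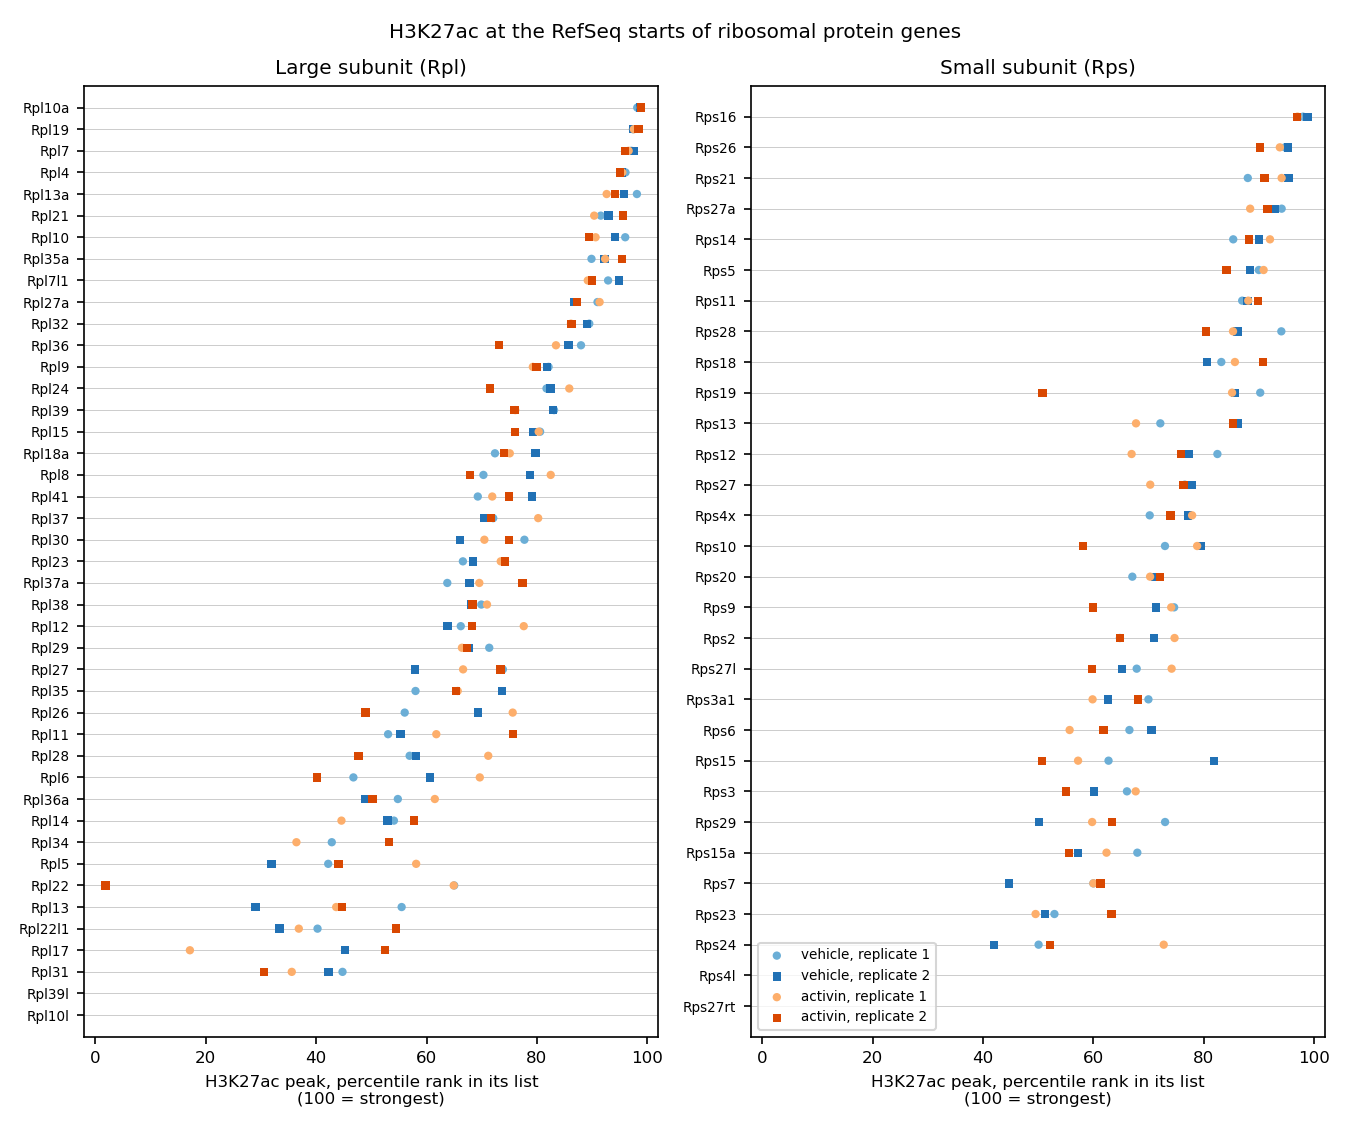
H3K27ac at the RefSeq starts of the ribosomal protein genes reported here by name. The x axis is the percentile rank of the strongest overlapping peak in its own list (100 is the strongest), each line is 1 gene ordered by its mean, circles and squares are replicates 1 and 2, blue is vehicle and orange activin, and a line without points had no peak. Rpl10a, Rpl19 and Rps16 sit near 98 in all lists, and Rpl31 sits between 30.5 and 44.8.

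The name in the deposited annotation did not always show this peak, since that annotation gives each peak to the nearest transcript start. Counted by name, with the peak centre at 1 kb or less from the annotated start, 58, 59, 61 and 63 members had an H3K27ac start peak. It was present in all 4 lists for 53 genes, in some for 13 and in none for 9 (Rpl6, Rpl7, Rpl10l, Rpl39l, Rps4l, Rps4x, Rps16, Rps18 and Rps27rt). At the RefSeq starts the same peak carried the member's own name in 61 to 65 genes per list and the name of a snoRNA in 3 to 6. Rpl6 is an example: its start peak, ranked 46.7, 60.6, 69.7 and 40.1, was named for the snoRNA gene Gm26205 in all 4 lists. Rpl32 was named Snora7a, and Rpl13 Snord68, in 3 of 4 lists, and the Rpl15 peak bore the name of the neighbouring gene Nkiras1 in all 4. At 11 members the annotated start also lay more than 500 bp from the RefSeq start, among them Rpl36, Rps18, Rps4x, Rpl27, Rpl6 and Rpl7.

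The strongest acetylation among the named start peaks was at Rpl19, a protein at the bridge between the subunits, with ranks of 97.4, 97.4, 97.6 and 98.4. Rpl4, which lines the exit tunnel for the nascent chain, followed with 96.0, 95.4, 95.5 and 95.1. Rpl13a, known also for a role in translational silencing by interferon, had 98.1, 95.8, 92.6 and 94.1. These genes varied little between lists, as did Rps26, a protein at the mRNA exit, with 94.7, 95.3, 93.8 and 90.2, and Rpl21 with 91.6, 93.0, 90.4 and 95.6. By RefSeq start, 3 more genes reached this range. Rpl10a had 98.2, 98.6, 98.8 and 98.9, Rps16 had 98.0, 98.8, 97.0 and 97.0, and Rpl7 had 97.1, 97.6, 96.6 and 95.9. The Rpl10a peak was part of a domain 5.49 to 7.30 kb wide.

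The low end held Rpl31, with 44.8, 42.3, 35.6 and 30.5, and the paralogue Rpl22l1, with 40.3, 33.3, 36.9 and 54.5. Rpl5, which joins the large subunit together with Rpl11 and a small ribosomal RNA and can bind the p53 regulator Mdm2, had 42.2, 31.9, 58.1 and 44.0. Rpl14 had 54.1, 52.9, 44.6 and 57.8. These genes had peaks in every list but in the middle or lower part of it. Rpl17 had no peak at its RefSeq start in vehicle 1 and ranks of 45.2, 17.1 and 52.5 in the others. At its annotated start, 1499 bp away, a region of peaks was present in all 4 lists, the strongest peak in each ranking 60.2, 55.7, 71.7 and 52.5. In both vehicle lists and activin 1 that peak was named for the snoRNA gene Snord58b, so the low values of Rpl17 depend on which start and which name are taken. Rpl22 ranked 65.0 in vehicle 1 and 64.9 in activin 1, had no peak in vehicle 2 and stood at 1.85 in activin 2, and Rpl34 had 42.8, no peak, 36.4 and 53.2. At Rpl22 the lists of 1 treatment differed more from each other than the treatments did.

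As a group the members stood where other promoters stood in strength. The median rank of the member starts was 72.3, 77.2, 74.1 and 73.1 by RefSeq start, and the median of the gene means over the 68 genes was 73.0, against 75.9 over all protein-coding genes with H3K27ac in all 4 lists. Their start peaks by name were wider, with medians of 1180, 978, 1163 and 998 bp against 902, 844, 876 and 808 bp for all protein-coding genes. Of all member H3K27ac peaks, 60.7% to 63.1% lay at 1 kb or less from the start, against 30.3% to 31.7% for all protein-coding genes, and the median distance was 0.499 to 0.537 kb against 5.81 to 6.32 kb. Acetylation assigned to these genes was thus mostly at their starts.

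Neighbouring pathways were similar in presence. H3K27ac stood at the start in all 4 lists for 53 of 61 mitochondrial ribosomal protein genes (86.9%, median rank 78.0), for 14 of 16 genes of ribosome biogenesis and RNA polymerase I (87.5%, median 75.3) and for 16 of 18 translation factor genes (88.9%, median 91.5). The translation factors had the highest median, with Eef1a1, the main elongation factor, at 98.7, 97.2, 96.2 and 96.7. Ribosomal proteins whose names fall outside the rule had it in 4 of 4 genes with a RefSeq start, and they ranged from Rplp2, a stalk protein, at 91.7, 93.5, 94.0 and 92.4, to Rplp0, the base of the stalk, at 35.3, 17.5, 32.9 and 54.0. Fau, made as a fusion with a ubiquitin-like protein, had 91.1, 88.4, 77.2 and 85.2, and Rpsa, also known as a laminin-binding protein, had 80.9, 48.7, 74.8 and 64.1.

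The ETS, C/T run and GC box classes of the promoters differed little in rank, and the small YY1 class had a higher median. With H3K27ac in all 4 lists, genes with the ETS letters had a median rank of 69.3 (21 genes) and those without had 70.7 (31 genes). Those with a C/T run of at least 5 bases had 69.3 (13 genes) and those without 70.7 (39 genes), and those with and without a GC box had 70.7 and 70.0. The 5 genes with YY1 letters had a median of 91.8, and the 47 without had 69.6. The 5 spread from 60.8 to 95.2 and the others from 38.3 to 98.6, so the classes overlapped, and no test was made on this choice.

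Paralogue pairs differed in whether both genes had H3K27ac at the start. Rpl7 and its paralogue Rpl7l1 were both high, the latter with 92.9, 94.9, 89.2 and 90.0. Rpl10, a late-joining protein of the large subunit, had 96.0, 94.2, 90.6 and 89.4, and Rpl39, at the exit tunnel, had 83.1, 83.0, 76.1 and 76.0, while their paralogues Rpl10l and Rpl39l, known from the testis, had no peak at their starts. Rps4x had 70.2, 77.2, 77.9 and 74.0, and Rps4l, which RefSeq lists as a transcribed pseudogene, had none. Rps27 had 76.6, 77.9, 70.3 and 76.4 and Rps27l, known as a p53 target, had 67.9, 65.3, 74.2 and 59.8, so both members of that pair were acetylated. Rpl22 and Rpl22l1 are given above, and Rpl36a had 54.8, 49.0, 61.5 and 50.2.

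After 1 h of activin, a few more members had a named H3K27ac peak than with vehicle, and the ranks and lengths at the starts differed by less than the spread between lists. By name, the count of members with a start peak was 58.5 ± 0.707 (SD, n = 2) with vehicle and 62 ± 1.41 with activin, and the groups did not overlap. The difference of 3.5 genes gave p = 0.333 in the exact permutation test, the smallest possible. With only peaks of −log10 q of at least 5 the direction turned, to 50 genes with vehicle and 48.5 with activin. Counted as any peak at the annotated start, whatever its name, the means were 67.5 with vehicle and 69 with activin, a difference of 1.5. At RefSeq starts, any peak was present for 70, 69, 71 and 71 members and for 7349, 7198, 7282 and 7165 of 11244 protein-coding genes. The median rank over the 53 genes named in all 4 lists was 72.1, 71.4, 72.8 and 71.7, a difference of 0.48 that was smaller than the spread between lists (pooled SD 0.66; exact permutation p = 0.667). The length of the 5 kb around the annotated starts under H3K27ac had medians of 1240, 1171, 1270 and 1116 bp, a difference of −12.5 bp against a pooled SD of 84.4 bp (exact permutation p = 1). The order of the groups in the last 2 measures changed with the processing, as given in the closing section.

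Gene by gene, the shifts went both ways and were about as frequent as over all promoters. At the RefSeq starts both activin lists ranked higher than both vehicle lists for 13 of 68 members, 19.1%, against 21.6% of all protein-coding starts. Both ranked lower for 19, 27.9%, against 24.8%, and the groups overlapped for 36. Differences ran from −20.0 to 16.4 with a median of −0.40, and the range over the 4 lists of a gene had a median of 12.

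Among genes lower with activin, Rps19, whose human counterpart is often mutated in Diamond-Blackfan anaemia, had 90.2 and 85.7 in the vehicle lists against 85.1 and 50.8 in the activin lists. Its difference of −20.0 rested mostly on activin 2. Rps15 had 62.8 and 81.8 against 57.2 and 50.7, and Rpl31 had 44.8 and 42.3 against 35.6 and 30.5. Smaller but tighter shifts were found at Rpl39, with 83.1 and 83.0 against 76.1 and 76.0, and at Rpl32, with 89.5 and 89.1 against 86.2 and 86.3. Among genes higher with activin, Rps24 had 50.1 and 42.0 in the vehicle lists against 72.8 and 52.1 in the activin lists. Rpl23 had 66.6 and 68.4 against 73.4 and 74.2. Both partners of the small ribosomal RNA were in this group, Rpl11 with 53.0 and 55.3 against 61.8 and 75.7 and Rpl5 with the values above. These genes were picked for size after their values were seen, and no gene can pass a test with 2 lists a group.

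Regions away from the starts added few private sites. Merged over the lists by 1 bp of overlap, member H3K27ac peaks formed 136 regions, 88 of them in all 4 lists. In both activin lists but no vehicle list were 6 regions, 4.41%, against 5.84% of all H3K27ac regions, and in both vehicle lists but no activin list were 5, 3.68%, against 6.79%. Of the 88 shared regions, 21 ranked higher in both activin lists, 23.9%, against 26.4% of all, and 23 in both vehicle lists, 26.1%, against 31.2%. The 6 activin-only regions were at Rpl37a, Rps21, Rpl9, Rpl29 and, at 2 places, Rpl6, the highest ranked being that of Rpl9, 1.4 kb into the gene, at 59.2 and 29.8. The vehicle-only regions were at Rps4l, Rpl39l, Rps4x and, at 2 places, Rps15a, led by Rps4l, 37.2 kb before its start, at 69.6 and 53.6. With peaks of −log10 q of at least 5 as the mark of presence, 0 regions of either kind were left.

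**Figure D2:**
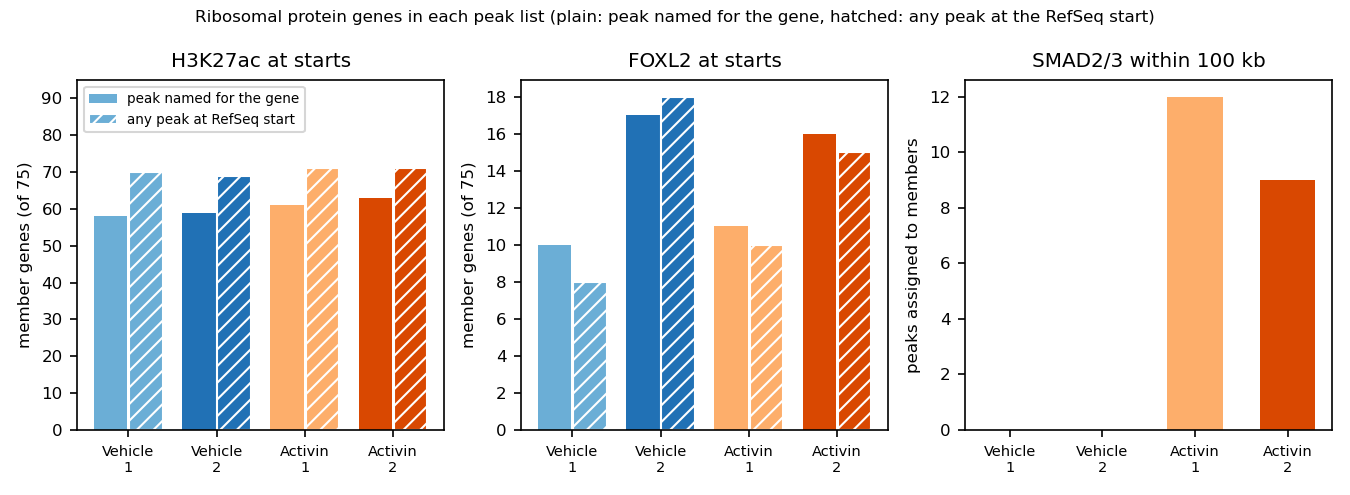
Bars give, for each library, the number of the 75 members with an H3K27ac (left) or FOXL2 (middle) peak at the start, plain where the peak is named for the gene and hatched where any peak overlaps the RefSeq start, and (right) the number of SMAD2/3 peaks assigned to members at 100 kb or less. H3K27ac counts lie between 58 and 71, FOXL2 counts between 8 and 18, and SMAD2/3 peaks are 0 and 0 in the vehicle lists against 12 and 9 in the activin lists.

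FOXL2 stood at the starts of a minority of the genes, mostly with peaks in the lower part of the lists, as at all genes. Start peaks by name had median ranks of 39.6, 31.2, 44.7 and 40.0, against 35.2, 33.8, 37.9 and 37.8 for all protein-coding genes. At RefSeq starts the medians were 27.7, 23.5, 37.1 and 19.3 for members, against 34.3, 32.7, 36.0 and 35.4. By name, 10, 17, 11 and 16 members had a FOXL2 peak at 1 kb or less from the start, 13.5 ± 4.95 with vehicle and 13.5 ± 3.54 with activin (SD, n = 2), so the means were equal (exact permutation p = 1) and replicate 2 of each treatment had more. Over the lists 23 genes had such a peak, 7 of them in all 4 lists, 5 in 3 lists and 11 in 1 list. Of those 11, 5 were seen only in vehicle 2 and 4 only in activin 2. At the RefSeq starts 8, 18, 10 and 15 genes had a FOXL2 peak. Both vehicle lists had it for 7 genes, 9.33%, against 10.8% of all protein-coding starts, and both activin lists for 8, 10.7%, against 11.3%. These shares of genes were near those of all genes. Counted over peaks, 10% to 15.4% of the member FOXL2 peaks per list lay at 1 kb or less from the annotated start, against 4% to 5.97% for all protein-coding genes.

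Rpl9 was the exception in strength, a protein of the large subunit near the site where translation factors bind. Its FOXL2 peak, centred 0.945 kb downstream of the start (chr5:65389739-65390344), ranked 97.8, 99.3, 98.8 and 99.2. It did not come within 1 kb of the RefSeq start of Rpl9, which lies 445 bp from the annotated one. The next highest value at a named member start was 75.3, at Rpl7l1. Rpl27 had 65.4, 72.7, 58.2 and 52.5, at the annotated start that lies 2629 bp from the RefSeq one, where H3K27ac by name was absent or ranked at most 13.2. Rpl7l1 had 48.5, 75.3, 54.5 and 67.9, Rps14 had 56.8, 58.2, 54.5 and 55.8, and Rps21 had 50.2, 61.4, 30.1 and 56.5. The vehicle and activin lists overlapped at Rpl9, Rpl7l1 and Rps21, while both vehicle lists of Rpl27 and of Rps14 ranked above both activin lists.

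Rpl41, the shortest ribosomal protein, had the largest gap between treatments among the members with a start peak in all 4 lists. Its FOXL2 peak had ranks of 30.7 and 42.2 in the vehicle lists against 56.2 and 58.0 in the activin lists, a difference of 20.7. The region (chr10:128549186-128549481) lay at its start and overlapped the window printed above, and the groups did not overlap. Rpl36a had no peak in vehicle 1 and then 42.3, 44.7 and 46.8. Rps26 had 24.7 and 30.8 with vehicle, none in activin 1 and 9.57 in activin 2, and Rpl29 had 10.5, 22.8, none and 10.2. The presence of these weaker peaks thus differed between lists of 1 treatment.

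**Figure D3:**
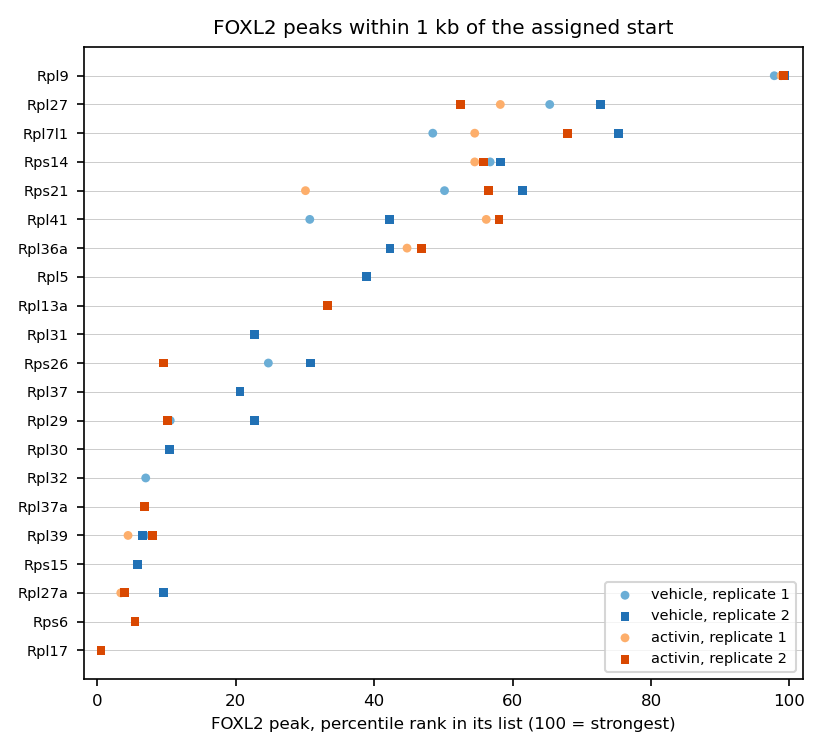
FOXL2 peaks of the ribosomal protein genes reported here by name, with the centre at 1 kb or less from the annotated start. The x axis is the percentile rank in the list, each line is 1 gene ordered by its mean, circles and squares are replicates 1 and 2, and blue is vehicle and orange activin. Rpl9 stands alone above 97 in all lists, and several genes have a point from 1 list only.

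Within 100 kb, FOXL2 peaks were assigned to fewer members than to other genes. The lists held 100, 117, 104 and 121 such peaks at 37 to 42 genes per list, and 47 members had one in any list. Both vehicle lists had one for 36 members, 48.0%, against 61.6% of all protein-coding genes, and both activin lists for 35, 46.7%, against 65.7%. The treatments differed by 0.05 in the mean log2 count, which was less than the spread between lists (pooled SD 0.16; exact permutation p = 0.667). The peaks were uneven over the genes. Rps14, whose human counterpart is lost in a form of myelodysplastic syndrome, had 8, 10, 10 and 13 of them, and Rps13 had 7, 8, 7 and 9. Rps4l, Rpl6, Rpl37a and Rps23 each had between 5 and 9 per list. Assignment is to the nearest start and does not show which gene a region acts on.

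The member FOXL2 peaks formed 157 regions, 80 of them in all 4 lists. The strongest lay 7.77 kb before Rpl39l (chr16:10162075-10162844, intergenic), with ranks of 99.5, 99.6, 98.7 and 98.5. After Rpl9 came a region 11.0 kb before Rps13 in intron 28 of 32 of Pik3c2a (chr7:116344946-116345430), with 98.2, 99.0, 96.2 and 97.9, and an intergenic one 11.4 kb before Rps14, with 97.2, 98.1, 96.6 and 97.6. Rps27a, which encodes a fusion of ubiquitin and a ribosomal protein, had one 4.01 kb downstream of its start in intron 12 of 13 of Mtif2 (chr11:29543485-29544152), with 96.2, 97.4, 97.0 and 97.2. None of these strongest regions except that of Rpl9 was centred at 1 kb or less from an annotated ribosomal protein start. Several lay inside a neighbouring gene.

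In the shared regions the members ranked lower with activin more often than higher. Both vehicle lists ranked higher in 35 of 80 regions, 43.8%, against 28.1% of all FOXL2 regions in 4 lists, and both activin lists in 13, 16.3%, against 29.9%. The median rank was 61.5 and 66.4 in the vehicle lists against 59.3 and 62.0 in the activin lists, a difference of −3.34 beside a spread between lists of 2.84 (pooled SD; exact permutation p = 0.667). Vehicle 1 lay within the range of the activin lists. Without vehicle 2 the difference was 0.45, and with ranks by the authors' fold enrichment it was −0.48. Regions of 1 gene are not independent, since the 80 regions share their genes and lists.

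**Figure D4:**
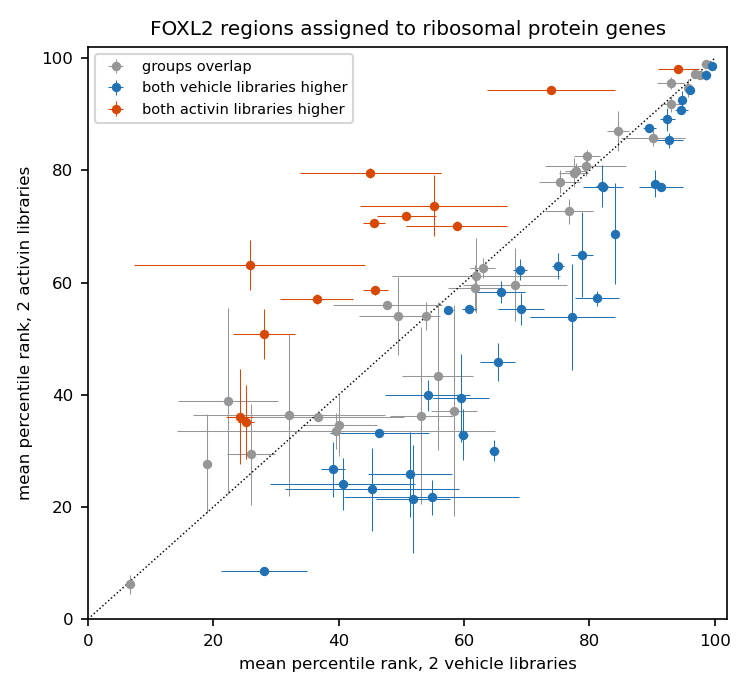
Each point is 1 of the 80 FOXL2 regions assigned to ribosomal protein genes and present in all 4 lists. The axes are the mean percentile rank of the 2 vehicle lists (x) and of the 2 activin lists (y), bars reach from the lower to the higher list, and the dotted line marks equal ranks. Blue points (35) ranked higher in both vehicle lists, orange points (13) in both activin lists, and grey points overlapped.

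Wide shifts were also found away from the starts. A region 13.7 kb before Rpl7, in intron 2 of 5 of Rdh10, ranked 64.0 and 65.5 in the vehicle lists against 32.0 and 28.1 in the activin lists. A region 8.38 kb before Rpl17 had 77.7 and 84.7 against 58.4 and 55.9. In the other direction, a region 10.5 kb downstream of the start of Rpl31, in intron 15 of 18 of Tbc1d8, had 43.9 and 47.4 against 70.4 and 70.9, and one 27 kb before Rps13, in intron 19 of 32 of Pik3c2a, had 56.3 and 33.8 against 78.6 and 80.5. These 4 were picked for size after their values were seen. In both activin lists alone were 7 regions, 4.46%, against 8.95% of all FOXL2 regions, and in both vehicle lists alone also 7, 4.46%, against 3.22%. The activin-only ones were at Rpl10l, Rps9, Rps14, Rps27 and, at 3 places, Rpl6, the strongest at Rps9 (5.18 kb from its start, 48.0 and 41.8). The vehicle-only ones were led by Rps4x (2.37 kb from its start, 52.1 and 60.6).

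SMAD2/3 was not found at the start of any ribosomal protein gene. At the RefSeq starts 0 of 75 members had a peak in any list, where 1.90% of all protein-coding starts had one in any list and 0.765% in both activin lists. Within 100 kb the lists held 0 and 0 member peaks with vehicle and 12 and 9 with activin, 10.5 ± 2.12 (SD, n = 2). The groups did not overlap, and the difference of 10.5 gave p = 0.333 in the exact permutation test, the smallest possible. The vehicle lists were short, and with every list limited to its 144 strongest peaks the activin lists held 0 member peaks as well. Both activin lists had a SMAD2/3 peak for 9 of 75 genes, 12%, against 11.4% of all protein-coding genes. The genes were Rpl9, Rpl10a, Rpl39l, Rps13, Rps14, Rps15a, Rps16, Rps21, Rps27 and, in activin 1 only, Rps27a.

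The peaks formed 12 regions, 9 of them in both activin lists and in no vehicle list, 75% against 54.0% of all SMAD2/3 regions. FOXL2 peaks of both activin lists overlapped 11 of the 12, where they overlapped 75.3% of all 8602 SMAD2/3 regions, and H3K27ac peaks of both activin lists overlapped 7, where they overlapped 57.8% of all. In the 20 SMAD2/3 peaks with a FOXL2 peak from the activin library of the same number, the summits lay 4 to 321 bp apart with a median of 38 bp, and 11 (55%) were within 50 bp. Over all 11096 such SMAD2/3 peaks the median was 31 bp, and 68.1% were within 50 bp. Overlap with FOXL2 was thus common at SMAD2/3 sites of these genes and of others.

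The strongest region lay 21.3 kb before Rps14 in intergenic sequence. SMAD2/3 ranked 93.5 and 94.5 there with activin, at 7.47- and 8.26-fold enrichment as given by the authors. FOXL2 ranked 95.6, 96.6, 95.1 and 93.8 over it, present with and without activin. It lay in an H3K27ac domain 11.7 to 12 kb wide that was among the strongest of the lists, at place 6 and 7 with vehicle and place 1 and 1 with activin. The authors' fold enrichment of that domain was 9.63 and 9.48 in the vehicle lists against 12 and 11.6 in the activin lists. The domain carried the name of Rps14 by distance only. A second SMAD2/3 peak in the same domain, 18.7 kb before Rps14, was in activin 1 alone at 62.3, and no FOXL2 peak overlapped it.

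The region 4.52 kb downstream of the start of Rps27 lay in intron 37 of 39 of Nup210l (chr3:90208777-90209433), the gene of a nuclear pore protein relative. SMAD2/3 ranked 90.1 and 81.0 with activin, at 12.2- and 9.31-fold enrichment. FOXL2 had no peak over it with vehicle and 21.0 and 7.52 with activin. H3K27ac peaks overlapping it ranked 37.4 in vehicle 1 and 90.7 and 88.5 with activin. Their width went from 0.470 kb in vehicle 1 to 2.34 and 2.15 kb. Vehicle 2 had no H3K27ac peak over it. It did have one elsewhere in the wider H3K27ac region (chr3:90207980-90210318), which was present in all 4 lists. All 3 readouts over the SMAD2/3 region were higher with activin. A separate FOXL2 region in the same intron (chr3:90208390-90208701) was lower, at 64.0 and 55.1 against 47.2 and 31.5, and H3K27ac at the Rps27 start itself was 76.6 and 77.9 against 70.3 and 76.4. The region 25.4 kb before Rps21 (chr2:180231842-180232063, intergenic) was alike in H3K27ac, with 28.8 and 55.2 against 89.1 and 83.7. SMAD2/3 ranked 70.0 and 32.2 there, and FOXL2 was steady at 75.2, 79.8, 77.0 and 82.1. The start of Rps21 had H3K27ac ranks of 88.0, 95.4, 94.1 and 91.0, with overlapping groups.

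Rpl9 had the SMAD2/3 region nearest to a start, at 1.05 kb (chr5:65389842-65390028), just outside the 1 kb limit and inside the strong FOXL2 region described above. It ranked 48.6 and 65.1 with activin, at 5.83- and 7.24-fold, and no H3K27ac peak overlapped it, although the activin-only H3K27ac region of Rpl9 (chr5:65389040-65389839) ended beside it. The start of Rpl9 was acetylated at 82.1, 81.9, 79.3 and 79.9. The region 3.45 kb before Rpl10a, in the last intron (4 of 4) of Fance (chr17:28325060-28325257), a DNA repair gene, ranked 20.2 and 64.0 and lay in the broad H3K27ac domain of that gene. Rpl39l had a region 1.77 kb into the gene, in intron 2 of 2 (chr16:10171859-10172141), with SMAD2/3 at 35.5 and 25.0. FOXL2 over it was lower with activin, at 60.6 and 58.9 against 28.4 and 37.5.

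The remaining regions were weak. The Pik3c2a intron region of Rps13, among the strongest for FOXL2, ranked 21.0 and 27.6 for SMAD2/3 and had no H3K27ac peak. Both Rps27a regions were in activin 1 only, at 12.9 at the promoter of Mtif2 and at 7.79 in its intron. Only activin 1 had an H3K27ac peak overlapping the promoter one (61.3). The wider H3K27ac region at that promoter (chr11:29537891-29540347) was in all 4 lists, its strongest peaks ranking 35.4, 44.1, 61.3 and 68.7. The region 3.02 kb before Rps16 (chr7:28347734-28348032, intergenic) ranked 5.29 and 19.7 with H3K27ac ranks of 98.0, 98.8, 97.0 and 98.3 over it. The one 88.8 kb from Rps15a (chr7:118026196-118026607, intergenic) ranked 4.05 and 6.01 and had H3K27ac ranks of 92.6, 88.8, 90.5 and 82.5. At Rps16 and Rps15a the H3K27ac ranks of the treatments overlapped.

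**Figure D5:**
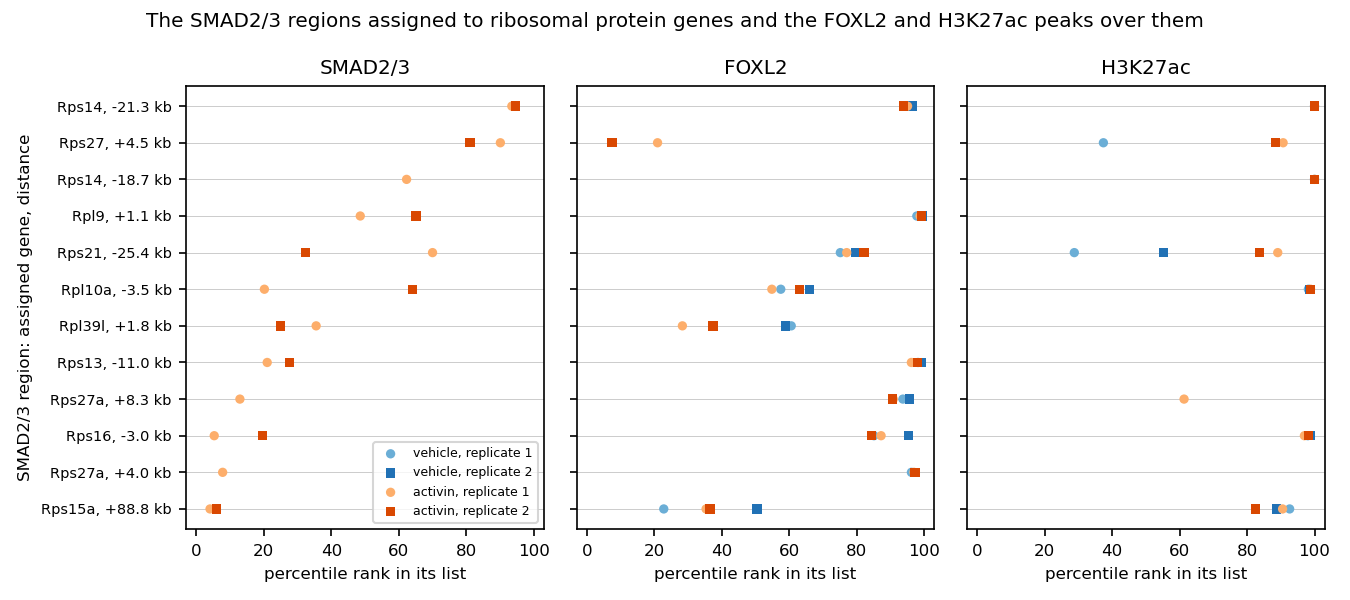
The 12 SMAD2/3 regions assigned to ribosomal protein genes, ordered by mean SMAD2/3 rank, with the distance from the annotated start (minus is upstream). Panels give the percentile rank of SMAD2/3, FOXL2 and H3K27ac peaks over each region. Circles and squares are replicates 1 and 2, and blue is vehicle and orange activin. A missing point is a list without a peak overlapping the region. SMAD2/3 points are all orange, and H3K27ac at the Rps27 and Rps21 regions is higher in both activin lists.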

How the data were processed

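The sources used here were the authors' deposited peak lists, narrow for SMAD2/3 and FOXL2 and broad for H3K27ac, and peak annotations of 12 libraries. Per the submitters' processing notes, Bowtie2, MACS2, HOMER and the builds GRCm38 and mm10 were used; versions, roles and the treatment of reads that map to more than 1 place are not given in the sources used here, and read depth is unknown beyond a planned number of single-end 50 bp reads. The deposited columns hold a score, a fold enrichment as a ratio, −log10 p and −log10 q, and the authors' distance of each peak to a start in bp. For at least 99.7% of peaks the score equalled 10 times −log10 q, rounded down. The lowest −log10 q was 1 in the H3K27ac lists and 1.3 in the others.

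Peaks were ranked within each list by −log10 q, annotated starts were derived from the distances, and RefSeq starts came from its GRCm38.p6 tables, as the gene's 5′ end for the 18 members without a promoter entry. Counts and medians per list were compared by two-sided exact permutation tests over 4 lists (Python 3.11.15, pandas 2.3.3, numpy 2.4.6, scipy 1.17.1), and the code was tested on simulated data. Members named were those with a SMAD2/3 peak, the 5 highest and 5 lowest H3K27ac start ranks, those without a named start peak, the 10 highest FOXL2 start ranks, the leading private regions, paralogue pairs and ribosomal proteins outside the rule; genes named for the size of a shift or as background are stated as such. Members and lists were chosen with earlier results of these data known. Alternatives were a −log10 q of at least 5, other distances, equal list lengths, ranks by fold, no paralogue names, each library left out and a replicate block. A Protein A sample was not analysed here. Some members are counted but not reported here by name.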

Additional observations from a re-analysis of the deposited data

How the results depend on the processing

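With only peaks of −log10 q of at least 5, the activin minus vehicle difference was −1.5 genes in the H3K27ac start count, −2.88 in the H3K27ac start rank and −0.044 in the log2 count of FOXL2 peaks within 100 kb; private H3K27ac regions were 0 activin-only and 0 vehicle-only, and private FOXL2 regions 4 and 4. The H3K27ac start rank was also reversed without paralogue names (−0.23), at 500 bp (−0.85) and with any peak at the RefSeq start (−0.91, added after seeing the data), and the H3K27ac length was 37 bp higher with activin within 1000 bp of the starts. At equal list lengths the difference was −5 genes in the FOXL2 start count, −0.15 in the FOXL2 log2 count and 0 in SMAD2/3 peaks. Ranked by fold, the FOXL2 region rank differed by −0.48 (−3.34 by −log10 q). The cause was not tested; fewer peaks entered under the stricter settings.

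Leaving out 1 library at a time gave 2.5 to 4.5 for the H3K27ac start count, 0.12 to 1.76 for its rank, −89.5 to 64.5 bp for its length, −3.5 to 3.5 for the FOXL2 start count, −0.061 to 0.17 for the FOXL2 log2 count, −6.11 to 0.45 for the FOXL2 region rank and 9 to 12 for SMAD2/3 peaks. It gave 9 to 13 activin-only and 6 to 14 vehicle-only H3K27ac regions, and 8 to 28 activin-only and 10 to 20 vehicle-only FOXL2 regions. Reversals came without vehicle 1 or activin 2 (length, 22 and 64.5 bp; FOXL2 log2 count, −0.061 and −0.057) and without vehicle 2 (FOXL2 region rank).

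With the replicate number as a block the differences were the same, such as 3.5 genes for the H3K27ac start count in the replicate block, where the smallest p for 2 pairs is 0.5. Same-numbered deviations correlated at −0.03 for H3K27ac and 0.13 for FOXL2 regions. With 2 lists a group no difference can pass a threshold of 0.05; read depth is unknown.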
